A study of Mus musculus with 60 samples.

Results

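The genes examined were the cytosolic ribosomal proteins of the mouse striatum, followed after 3 blockers of the NMDA-type glutamate receptor. A gene was taken as a member when its symbol in the array's probe table was Rpl or Rps followed by a number, with an optional a, l, x or y, or was Rplp0, Rplp1, Rplp2 or Rpsa, and kinases of the Rps6k family and pseudogenes were left out. This gave 59 of the 19057 genes with a named probe, 35 of the large (60S) and 24 of the small (40S) ribosomal subunit, each read from its brightest probe. All 59 passed the filter on dim probes, which 18936 of the 19057 genes did.

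RNA came from the striatum of male C57BL/6J mice aged 8 to 10 weeks, and each array held a pool of 2 mice. The injections into the abdomen held ketamine at 20 mg/kg, memantine at 15 mg/kg, phencyclidine (PCP) at 5 mg/kg, or saline alone, given 1, 2, 4 or 8 h earlier, and naive mice of each time received no injection. The 5 treatments and 4 times made 20 groups of 3 arrays, 60 in all, on 10 BeadChips of 6 arrays, which the labels give for each array. Doses differ between the drugs, so a difference between 2 drugs is one between those doses. Values are quantile-normalized log2 intensities, and a difference is a difference of group means on that scale with its standard error (SE). The drug factor of a compound is its mean difference from saline over the 4 times, 12 arrays against 12. The p-values measure the spread between the pools of a group, as a common estimate per probe over all 20 groups. Median raw intensity ran from 166.85 to 646 over the arrays, and the lowest mean correlation of an array with the others was 0.934, for saline 4 h replicate 3.

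Each cytosolic ribosome holds 1 copy of nearly every ribosomal protein, so the genes of the family are known for being expressed together and at high levels in every cell type. Their mRNAs typically begin with a C followed by a run of pyrimidines, the 5′ terminal oligopyrimidine (TOP) tract, through which mTOR signalling controls their translation. Ketamine's rapid behavioural effects have been linked to mTOR signalling, whereas arrays of this kind read mRNA amount only. Several members also serve as reference genes in quantitative PCR.

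Runs of C and T were counted around the RefSeq starts of transcription. A counted run need not cover the start or begin with a C, so the counts do not measure the TOP tract itself. RefSeq starts (build GRCm38.p6) were found for 48 of the 59 members, with 58 starts. In the 20 bases around a start, 10 on each side, the longest run of C and T over the starts of a gene had a median of 6 bases among the members, with a range of 2 to 17, and of 4 bases among all 27025 genes of the table. Runs of 8 bases or more were found at 15 of the 48 members, or 31.3%, and at 8.71% of all genes. The letters CTTTCC, searched on the transcribed strand, were in this window of 5 members and of 0.995% of all genes, and the letters TCTTTC, which overlap them, in 4 members and 0.770% of all genes. The windows below run from 10 bases before the start to 20 after it and show members on which the later results turn, together with the paralogs Rpl39l and Rpl3l. Capitals mark the longest run of C and T within the first 20 bases shown, which are the window searched, and a run can go on past it. In Rpl27, Rpl23, Rpl24 and Rpl39l the marked run lies wholly before the start.
Rps6: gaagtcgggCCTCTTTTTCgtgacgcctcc
Rplp2: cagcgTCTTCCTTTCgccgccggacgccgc
Rps24: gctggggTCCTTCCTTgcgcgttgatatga
Rpl35: ccgCCCTTTCCTCTTTCTCTcgaaccaggc
Rps15a: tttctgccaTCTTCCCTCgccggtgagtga
Rpl27: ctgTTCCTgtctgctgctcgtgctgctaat
Rpl23: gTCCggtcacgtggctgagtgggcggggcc
Rpl24: gCTgttgctaggaaacagactgggcgctcg
Rpl39l: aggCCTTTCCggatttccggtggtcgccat
Rpl3l: caacagctacagtgCCCCaaatgtcctgaa
The windows lie at chr4:86857348-86857377 (Rps6), chr2:39005112-39005141 (Rpl35), chr7:118116128-118116157 (Rps15a) and chr11:97782420-97782449 (Rpl23) on the minus strand. Those on the plus strand are chr7:141447641-141447670 (Rplp2), chr14:24490668-24490697 (Rps24), chr11:101442235-101442264 (Rpl27), chr16:55966265-55966294 (Rpl24), chr16:10170218-10170247 (Rpl39l) and chr17:24732675-24732704 (Rpl3l). Rpl35 had 1 of the 2 longest runs, 17 bases, and Rps6 and Rplp2 had 10 each. Rpl24 and Rpl23, at 2 and 3 bases, had the shortest runs among those shown, and a short run says only that these letters are not in this window.

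Ribosomal protein probes were among the brightest of the array. By mean raw intensity 41 of the 59 members lay in the top 5% of probes and 31 in the top 1%, and 14 lay between the median probe and the top 5%. The brightest was Rpl23, a large-subunit protein that also binds MDM2, with raw intensities between 52692 and 68816 (median 61412). The highest signal of any probe on an array lay between 60588 and 69090, so Rpl23 was read close to the top of the scale and a change in it may be understated. Rplp1, an acidic protein of the stalk that recruits elongation factors, followed with a median of 49621, then Rpl41 with 46199 and Rps29 with 44265. Levels of different genes rest on different probes and were not ranked beyond that. The dimmest members were Rps20, Rpl39l, Rps23 and Rpl17, all below the median probe, with median raw intensities of 206.0, 200.005, 182.5 and 172.3. Their probes lay at the 45.7th, 43.2nd, 23.1st and 4.63rd percentile of brightness. Rps20, Rps23 and Rpl17 encode core proteins of the ribosome, and passing the filter does not show that these probes detected the mRNA.

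Members varied little between replicate arrays, as bright probes did in general. The residual SD within groups had a median of 0.186 over the members and 0.298 over all probes. Among the 2265 probes in the top 5% by raw intensity the median was 0.182, and the 41 members among them had a median of 0.162. The smallest residual SDs were those of Rpl23 (0.0789), Rpl3 (0.103), which helps form the peptidyl transferase centre, Rpl27a (0.105) and Rpl10a (0.110). The largest were those of Rpl14 (0.556), Rpl39l (0.431), Rpsa (0.411) and Rpl6 (0.398), whose probes lay at the 52.8th, 43.2nd, 63.6th and 56.5th percentile of brightness. Of the 12 members used as reference genes in quantitative PCR, Rps16 (0.161), Rpl19 (0.162), Rpl32 (0.175), Rps29 (0.177), Rps13 (0.181), Rps9 (0.186), Rplp0 (0.190), Rpl4 (0.198) and Rpl13a (0.201) varied least. Rpl27 (0.240) and Rpl30 (0.248) varied more, and Rpsa, the laminin receptor protein of the small subunit, most. With memantine at 4 h 3 of these 12 were above 0 (median -0.18), beside 51.1% of all probes, and 4 had an unadjusted p under 0.05, beside 15.2%, with 0 called by limma, beside 0.721%.

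**Figure D1:**
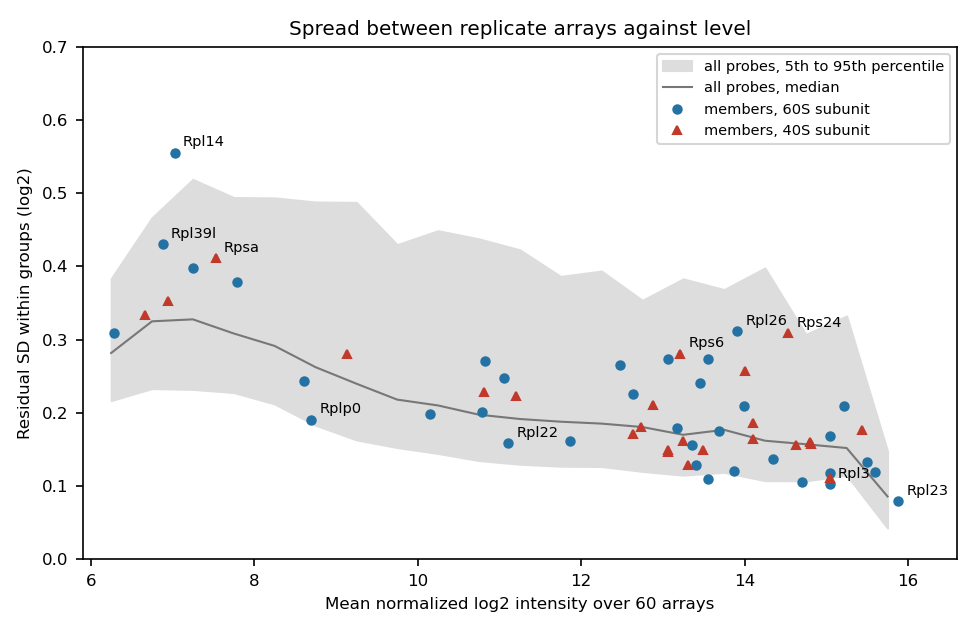
Residual SD within groups (log2, vertical axis) against mean normalized log2 intensity over 60 arrays (horizontal axis), with a point for each of the 59 members (circles, 60S; triangles, 40S). The grey band holds the 5th to 95th percentile of all tested probes in steps of level, and the line is their median; Rpl14 at 0.556 stands above the band and Rpl23 at 0.0789 is the lowest member.

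The spread between arrays of a group differed between treatments. The median within-group SD of the members was 0.157 on ketamine arrays, 0.183 on memantine arrays, 0.191 on PCP arrays, 0.217 on saline arrays and 0.153 on naive arrays. For 50 of the 59 members the saline arrays spread more than the naive arrays, as 75.2% of all probes did. Ranges over 12 arrays show it for Rplp2, a stalk protein, whose level ran from 12.81 to 14.33 (median 13.65) on saline arrays and from 13.26 to 13.88 (median 13.54) on naive arrays. Every difference from saline below therefore has the most variable treatment as its control. The SEs, p-values and intervals use a common spread per probe, pooled over all groups. They may therefore understate the uncertainty of differences from saline.

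The drug factors asked whether a compound shifted ribosomal protein mRNA on average over the 8 h. By limma's moderated test with Benjamini-Hochberg adjustment over all 44236 probes, 0 of the 59 members passed with ketamine, 0 with memantine and 0 with PCP, and 0.0181%, 0.0543% and 0% of all probes did. At an unadjusted p under 0.05 the members were 3 with ketamine, 1 with memantine and 1 with PCP, beside 9.46%, 9.4% and 6.99% of all probes. The median difference of the members was 0.055 with ketamine, 0.034 with memantine and 0.062 with PCP, against medians of 0.0063, 0.0046 and 0.0064 over all probes. Differences lay above 0 for 44, 36 and 45 of the 59, beside 51.7%, 51.3% and 51.9% of all probes. Saline minus naive had 19 of 59 above 0 and a median of -0.050, and the same saline arrays enter every drug factor. A rise with a drug and low saline arrays cannot be told apart in these counts. The 95% intervals use the spread pooled over all groups. They lay within 0.5 log2 units on either side of 0 for 55 members with ketamine, 57 with memantine and 58 with PCP. For all 59 they lay within 1 unit with each drug. These medians and intervals rest on quantile normalization. With arrays scaled to a common median instead, the medians of the members and of all probes were larger with each drug, as given in the closing section.

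The 3 drugs share the saline arrays, so their factors are not independent of each other. The members of each with the largest test statistic are given here. Rps4l, a relative of Rps4x, ran from 8.96 to 9.66 (median 9.27) over 12 ketamine arrays and from 8.44 to 9.80 (median 8.90) over 12 saline arrays. Its ketamine factor was 0.32 ± 0.11 (SE, adjusted p = 0.356), and 11 of 12 ketamine arrays lay above the saline mean of their time, although the ranges overlapped. Rps13, which lies in the small subunit body, had a ketamine factor of 0.19 ± 0.081 (adjusted p = 0.458), also with 11 of 12 arrays. Rpl27 was the third, at 0.21 ± 0.10 (adjusted p = 0.509). With memantine the highest by test statistic was Rpl35 at 0.13 ± 0.063 (adjusted p = 0.515), with levels from 13.58 to 14.07 (median 13.98) on memantine arrays and from 13.55 to 14.07 (median 13.78) on saline arrays. Rps21 stood at 0.12 ± 0.074 (adjusted p = 0.622), and Rpl23 and Rpl22 were the lowest, at -0.11 ± 0.053 and -0.14 ± 0.074. With PCP the highest were Rps26 at 0.15 ± 0.071 (adjusted p = 0.680) and Rps20 at 0.28 ± 0.14, and the lowest Rplp1 and Rpl22 at -0.069 ± 0.063 and -0.081 ± 0.074. The Rps20 probe was dim, at the 45.7th percentile of brightness. The lowest with ketamine were Rpsa at -0.24 ± 0.16 and Rplp1 at -0.096 ± 0.063. None of these passed the adjusted threshold.

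**Figure D2:**
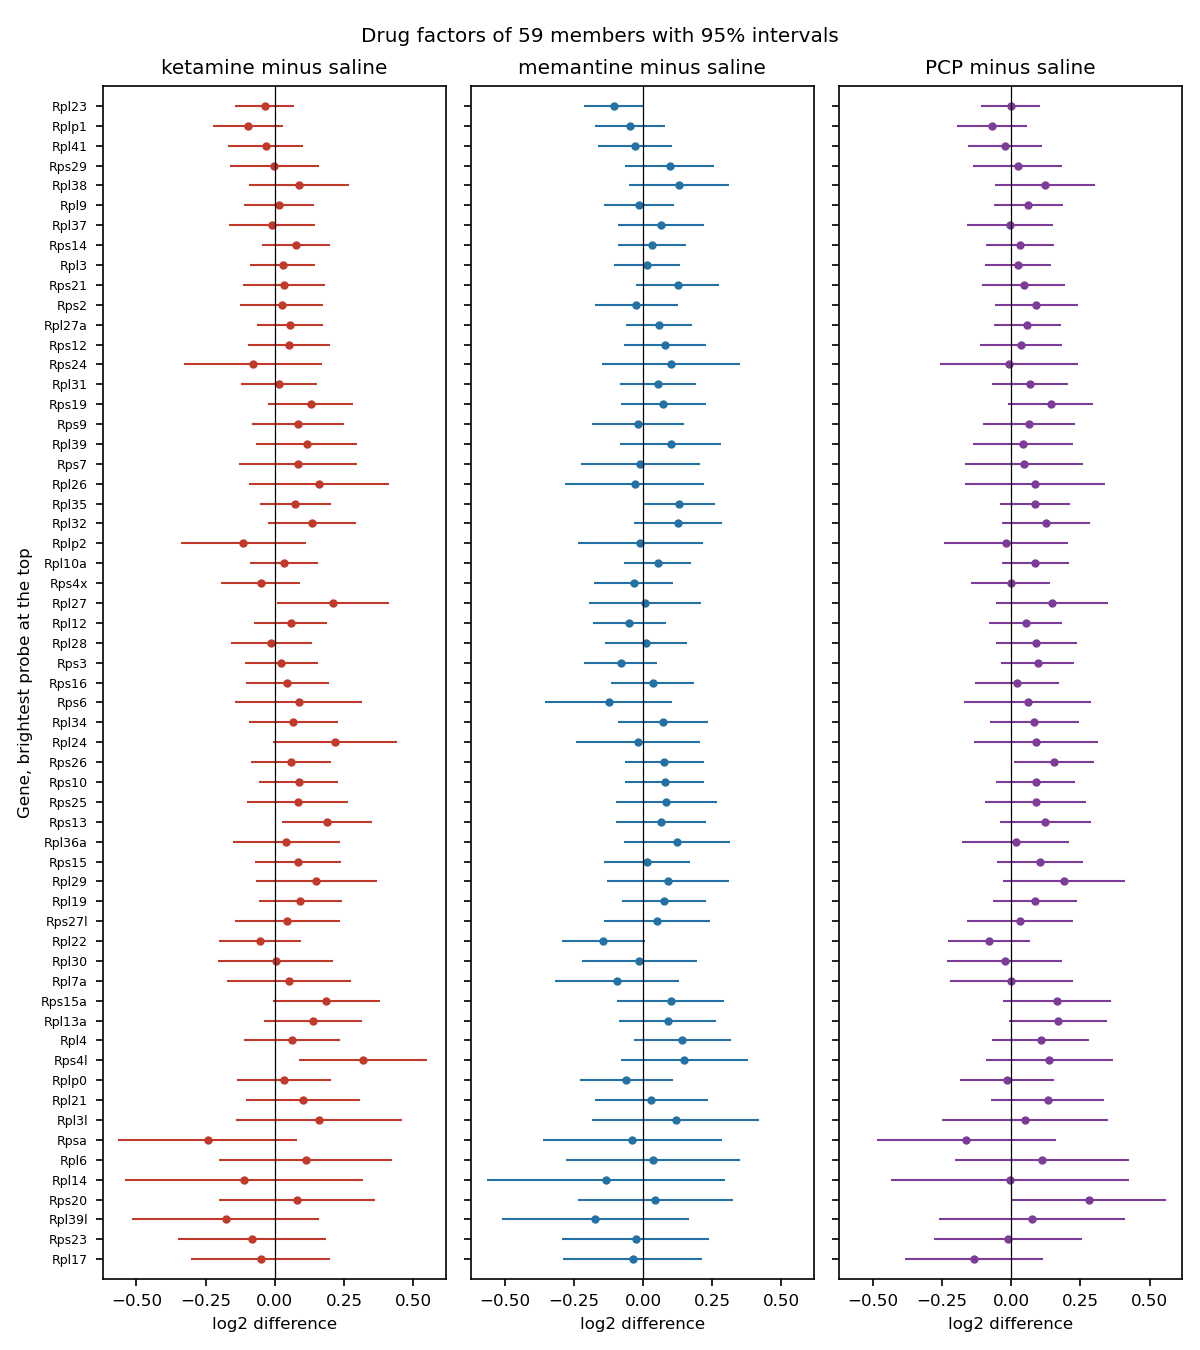
Drug factor (log2 difference from saline averaged over 4 times, horizontal axis) of the 59 members for ketamine, memantine and PCP, with the brightest probe at the top. Points are estimates and lines 95% intervals (12 arrays against 12). Most lie slightly right of 0, with 44, 36 and 45 of 59 above it, and no member passed the adjusted threshold. All panels share the saline arrays, and saline minus naive was above 0 for 19 of 59.

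The joint F-test of the 3 factors called 0 of 59 members, beside 0.0158% of all probes, and 0 at an unadjusted p under 0.05, beside 6.69%. Its smallest p among members was that of Rps4l (adjusted p = 0.764). Setting the drugs against each other, again by limma, 0 members passed for ketamine minus memantine, PCP minus memantine or ketamine minus PCP, and 0% of all probes did in each. At an unadjusted p under 0.05 there were 2, 1 and 0 members, beside 3.83%, 3.4% and 3.22% of all probes. Rpl24 and Rpl27 were the higher ones for ketamine minus memantine, at 0.24 ± 0.11 and 0.20 ± 0.10, and Rps3, a small-subunit protein at the mRNA entry, for PCP minus memantine at 0.18 ± 0.066 (adjusted p = 1 for each of these). For ketamine minus PCP the 95% interval lay within 0.5 for 57 of 59 members. The doses are not matched.

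The stalk proteins and the tissue-restricted or stress-linked paralogs are considered next. Rplp0, the base of the stalk, had factors of 0.033 ± 0.084 with ketamine, -0.060 ± 0.084 with memantine and -0.015 ± 0.084 with PCP. Rplp1 and Rplp2, which pair on it, stood at -0.096 ± 0.063 and -0.11 ± 0.11 with ketamine, and 1 of the 3 stalk members was above 0 with ketamine and 0 with memantine or PCP. Rpl3l, known from heart and skeletal muscle, had a probe at the 67.8th percentile of brightness and factors of 0.16 ± 0.15 with ketamine, 0.12 ± 0.15 with memantine and 0.048 ± 0.15 with PCP. Rpl39l, known from testis, was among the dimmest members and stood at -0.18 ± 0.17, -0.17 ± 0.17 and 0.075 ± 0.17 in the same order. Rps27l, a p53-responsive paralog of Rps27, stood at 0.046 ± 0.095, 0.051 ± 0.095 and 0.031 ± 0.095.

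Saline minus naive, averaged over the 4 times, asks what the injection itself did. By limma 0 of 59 members passed, beside 0.00226% of all probes. At an unadjusted p under 0.05 there were 3, all lower on saline arrays, beside 8.84% of all probes. They were Rps4l at -0.25 ± 0.11 (adjusted p = 0.513), Rps13 at -0.17 ± 0.081 (adjusted p = 0.536) and Rpl13a at -0.18 ± 0.088 (adjusted p = 0.556). Rps4l and Rps13, the members highest on the ketamine factor, also had the 2 smallest p here, and both comparisons share the saline arrays. Only 19 of the 59 differences lay above 0, beside 48% of all probes, with a median of -0.050, against -0.0068 over all probes. Rpl17 and Rpl22 were the highest, at 0.20 ± 0.12 and 0.080 ± 0.074. The Rpl17 probe lay at the 4.63rd percentile of brightness, so its value was read near the bottom of the scale.

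Times were then taken one by one, 3 arrays against 3. The counts of members that passed the adjusted threshold were 0 in all 12 comparisons with saline. All probes passed at 0%, 0.00452%, 0.0746% and 0% with ketamine at 1, 2, 4 and 8 h, at 0%, 0.00226%, 0.721% and 0% with memantine, and at 0.00226%, 0%, 0.0226% and 0% with PCP. At an unadjusted p under 0.05 there were 0, 1, 5 and 2 members with ketamine, beside 5.71%, 5.31%, 10.5% and 4.68% of all probes. With memantine there were 2, 2, 11 and 6, beside 5.33%, 4.24%, 15.2% and 4.8%. With PCP there were 2, 1, 9 and 4, beside 4.3%, 5.11%, 10.8% and 4.67%. Rpl6 was the highest by test statistic at 2 h with all 3 drugs, at 0.69 ± 0.31, 0.76 ± 0.31 and 0.56 ± 0.31, but its probe was dim and saline 2 h stood 0.69 ± 0.31 below saline 1 h, so the shared saline arrays enter all 3 values.

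**Figure D3:**
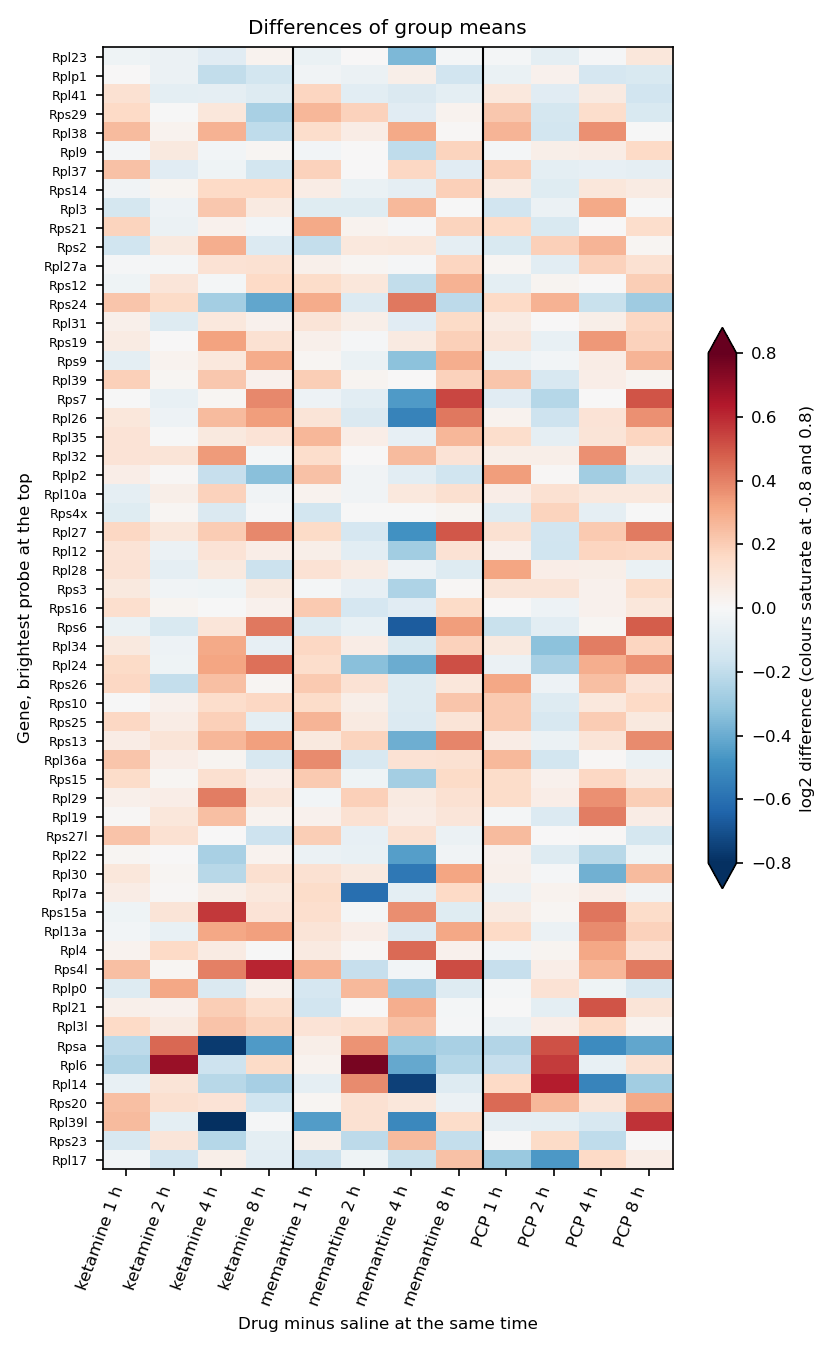
Differences in group mean log2 value from saline of the same time (colour) for 59 members (rows, brightest probe at the top) in 12 comparisons (columns, 3 arrays against 3 each). The column for memantine at 4 h holds the most lower values, with 20 of 59 above 0, and Rps7, Rpl27 and Rps13 lie below 0 with memantine at 4 h and above 0 at 8 h.

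Of the 12 comparisons of a drug with saline at a single time, memantine at 4 h had the lowest median of the members. The median of the 59 was -0.089, against 0.010 over all probes, and 20 were above 0, beside 51.1% of all probes. At an unadjusted p under 0.05 there were 9 lower members, beside 7.09% of all probes that were lower, and 2 higher ones, Rpl4 and Rpl3. Rpl23 had the smallest p: its level was 15.82, 15.57 and 15.31 on the 3 memantine arrays and 15.97, 15.93 and 15.89 on the saline arrays, so the groups did not overlap. The difference was -0.36 ± 0.11 (adjusted p = 0.0800), on a probe read near the top of the scale, and the other 3 probes of Rpl23 gave -0.059, -0.040 and 0.52. Rpl23 passed with the authors' log2 values, without background correction, with only probes above the filter on all arrays, and with a trended and robust variance.

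Rps6, the small-subunit protein whose phosphorylation by S6 kinases is a common readout of mTOR activity, stood at 13.22, 11.91 and 12.56 on memantine arrays, against 12.95, 13.36 and 13.38 on saline arrays. Its difference was -0.67 ± 0.23 (adjusted p = 0.139), and the groups overlapped because the first memantine array was not low. Rpl27 stood at 13.49, 12.51 and 12.76 on memantine arrays, against 13.32, 13.52 and 13.39 on saline arrays, a difference of -0.49 ± 0.20 (adjusted p = 0.225). Again memantine replicates 2 and 3 were low and replicate 1 was not. Rpl30, with a difference of -0.57 ± 0.21 (adjusted p = 0.162), stood at 10.86, 10.52 and 11.08 on memantine arrays, against 11.75, 11.19 and 11.24 on saline arrays, with no overlap. A dimmer probe of Rpl30, at the 78.6th percentile of brightness, gave -0.19. Rpl22, at -0.44 ± 0.15 (adjusted p = 0.133), stood at 11.10, 11.11 and 10.57 on memantine arrays, against 11.37, 11.42 and 11.30 on saline arrays, and did not overlap either. In the other direction, Rpl4 stood at 10.36, 10.35 and 10.46 on memantine arrays, against 9.93, 10.10 and 9.78 on saline arrays, a difference of 0.45 ± 0.17 (adjusted p = 0.188). A dimmer probe of Rpl4, at the 44.3rd percentile, gave -0.021.

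The lower median rested on a pair of arrays and on the scaling. Without memantine replicates 2 and 3 at 4 h the median of the members was 0.054 and Rpl23 stood at -0.11 (adjusted p = 0.902), and without saline replicates 1 and 3 at 4 h, the arrays least like the others, it was -0.21. Without memantine replicate 1 at 4 h, Rpl23, Rpl27 and Rps6 passed the adjusted threshold, beside 1.47% of all probes. With arrays scaled to a common median instead of quantile-normalized, the median of all probes was 0.26 and that of the members 0.76, so the direction turned. Then 30 members were called, all higher, beside 20.3% of all probes (8968), of which 8385 were higher. Against naive arrays of 4 h the median was -0.14, with 12 of 59 above 0. The memantine and saline arrays of 4 h shared no BeadChip, so memantine and BeadChip could not be compared within one. With BeadChip as a block the median was -0.032 and Rpl30 passed.

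PCP at 4 h went the other way. The median difference was 0.087, 45 of 59 members were above 0, beside 51.6% of all probes, and the 9 members at an unadjusted p under 0.05 were all higher, beside 6.23% of all probes that were higher. They included Rpl19 at 0.41 ± 0.15 (adjusted p = 0.273), Rpl3 at 0.30 ± 0.12 (adjusted p = 0.311), Rpl34 at 0.41 ± 0.16 and Rpl21 at 0.50 ± 0.20. Rpl19, a protein that also bridges the subunits, stood at 12.02, 12.15 and 11.84 on PCP arrays, against 11.39, 11.82 and 11.55 on saline arrays, with no overlap. The lowest by test statistic was Rpl30 at -0.38 ± 0.21 (adjusted p = 0.511).

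With ketamine at 4 h the highest was Rps15a at 0.56 ± 0.19 (adjusted p = 0.275), and Rpl39l and Rpsa were the lowest, at -0.87 ± 0.34 and -0.77 ± 0.32. Rps15a, a core protein of the small subunit, stood at 10.84, 11.03 and 10.79 on ketamine arrays, against 9.42, 10.90 and 10.65 on saline arrays and 10.78, 11.06 and 11.004 on naive arrays. A single saline array was low, the groups overlapped, and without that array the difference was 0.11. In the other direction, leaving out saline replicate 2 at 4 h made Rps15a pass with ketamine, with PCP, in saline 4 h minus 1 h and in the F-test over time in saline mice. All probes then passed at 1.39% with ketamine, 2.31% with PCP and 1.34% in saline 4 h minus 1 h. Saline minus naive at 4 h gave Rps15a the smallest p as well, at -0.62 ± 0.19 (adjusted p = 0.144). Without saline replicate 2, Rps15a and Rps19 passed there, beside 2.54% of all probes. At 4 h without saline replicates 1 and 3 the medians were -0.031 with ketamine and -0.0061 with PCP.

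At 8 h the median of the members lay above 0 with memantine and PCP, but below 0 under median scaling, at -0.0092 and -0.18, where all probes had medians of -0.053 and -0.10. Against naive arrays it was 0.064 with memantine and 0.034 with PCP. The median was 0.113 with memantine, where 39 were above 0, beside 50.8% of all probes, and the 6 members at an unadjusted p under 0.05 were all higher, beside 2.5% of all probes that were higher. It was 0.093 with PCP, where 42 were above 0, beside 50.3%, and all 4 such members were higher, beside 2.39%. Rps7, a small-subunit protein that also binds MDM2, had the smallest p with both, at 0.53 ± 0.21 and 0.50 ± 0.21 (adjusted p = 0.990 and 0.978). It stood at 14.14, 14.28 and 14.08 on memantine arrays and 14.12, 14.27 and 14.02 on PCP arrays, against 13.86, 13.93 and 13.11 on saline arrays and 14.00, 13.94 and 14.05 on naive arrays. Saline replicate 3 was low, and all memantine and PCP arrays lay above all saline arrays. Rpl27 and Rps13 were higher with both drugs on the same saline arrays, at 0.50 ± 0.20 and 0.39 ± 0.16 with memantine. With ketamine at 8 h Rps4l was the highest, at 0.61 ± 0.23 (adjusted p = 0.995).

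The drug by time tests asked whether a difference from saline changed over the 8 h. They called 0 of 59 members with ketamine, memantine or PCP, beside 0%, 0.00452% and 0% of all probes. At an unadjusted p under 0.05 there were 0, 6 and 1, beside 5.72%, 7.99% and 6.18%. The smallest p with memantine was that of Rpl27 (adjusted p = 0.444), which was lower at 4 h and higher at 8 h. For saline minus naive by time 0 members passed, beside 0% of all probes, and 1 was under 0.05 unadjusted, beside 5.65%. At single times the medians for saline minus naive were -0.10, 0.017, -0.063 and -0.035 at 1, 2, 4 and 8 h, with 16, 33, 20 and 21 of 59 above 0. By limma 0 members passed, beside 0%, 0%, 0.26% and 0% of all probes at 1, 2, 4 and 8 h. Unadjusted there were 0, 0, 4 and 0, beside 4.08%, 4.25%, 11.9% and 4.36%, and the 4 at 4 h (Rps15a, Rps19, Rpl19 and Rpl32) were all lower on saline arrays, beside 6.72% of all probes that were lower.

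Time alone was followed in the animals that received no drug. In naive mice 0 members passed the F-test over time, beside 0% of all probes, and 0 were under 0.05 unadjusted, beside 2.26%. The later times minus 1 h also gave 0 members, beside 0% of all probes at 2, 4 and 8 h, and 0 unadjusted, beside 2.33%, 2.69% and 2.55%. In saline mice 0 members passed the F-test, beside 0.199% of all probes, and 2 were under 0.05 unadjusted, beside 10.8%. Saline at 2, 4 and 8 h minus 1 h gave 0 members each, beside 0%, 0.145% and 0.00678% of all probes, and 1, 4 and 3 unadjusted, beside 5.05%, 10.2% and 6.39%. Rpl3 stood at -0.34 ± 0.12 at 4 h minus 1 h in saline mice (adjusted p = 0.253), and Rps6 stood at -0.52 ± 0.23 at 8 h (adjusted p = 0.737).

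A score over the members shows the arrays one by one. It is the mean over the 59 genes of the log2 value minus the gene's mean on naive arrays. It lay between -0.23 and 0.09 on the 60 arrays, with medians of -0.0057 on ketamine arrays, 0.0036 on memantine arrays, 0.037 on PCP arrays, -0.030 on saline arrays and 0.0001 on naive arrays. The 2 lowest arrays of the memantine 4 h group, at -0.23 and -0.15, and saline 1 h replicate 2 at -0.15, saline 8 h replicate 3 at -0.14 and PCP 2 h replicate 3 at -0.13 were the lowest 5 of 60.

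**Figure D4:**
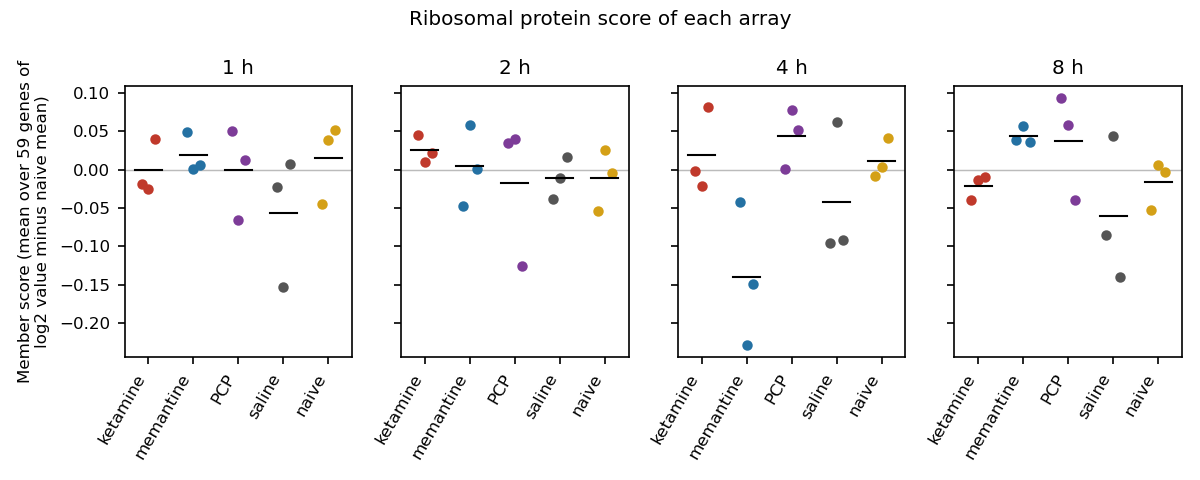
Member score of each of the 60 arrays (mean log2 value of 59 genes minus the mean on naive arrays, vertical axis) by treatment at 1, 2, 4 and 8 h; points are arrays and lines group means of 3. Memantine at 4 h holds the lowest array at -0.23, and the saline groups at 1, 4 and 8 h each hold at least 1 array below -0.09.

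Members did not move as one. Over the 60 arrays the median correlation between 2 members was 0.086, with pairs from -0.66 to 0.86, against -0.001 over all pairs of probes. At r of 0.7 or more there were 24 of 1711 member pairs (1.4%), beside 0.0558% of all pairs of probes. All pairs include many dim probes, and pairs of like brightness were not set beside the members. The points are arrays that share BeadChips and groups, and r values are given as a description. The highest pairs were Rpl27 with Rpl24 (0.86), Rps9 with Rps6 (0.84) and Rps7 with Rps6 (0.79). Linking all pairs at 0.7 gave a set of 10 (Rps12, Rps9, Rps7, Rpl26, Rpl27, Rpl12, Rps6, Rpl24, Rps13 and Rpl13a) and a set of 4 (Rpl37, Rps24, Rplp2 and Rps27l). Another set of 4 was Rps19, Rps10, Rpl29 and Rpl19, and Rps21 and Rpl36a made a pair. The remaining members were linked to none. The set of 10 mixes both subunits, and its runs of C and T around the start were 2 to 10 bases long.

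The set of 10 was low on a few arrays of different treatments. Its mean against naive was -0.88 and -0.46 on memantine 4 h replicates 2 and 3, -0.61 on PCP 2 h replicate 3 and -0.66 on saline 8 h replicate 3, while every other array lay between -0.24 and 0.21. Those 4 arrays lay on 3 BeadChips, and other arrays of the same BeadChips were not low. The set of Rpl37, Rps24, Rplp2 and Rps27l followed the BeadChips more evenly, with all 6 arrays below 0 on BeadChips 1, 5 and 10 and all 6 above 0 on BeadChips 6 and 7. It was highest on saline 4 h replicate 1 at 0.60 and lowest on saline 1 h replicate 2 at -0.61, 2 arrays of 1 treatment.

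**Figure D5:**
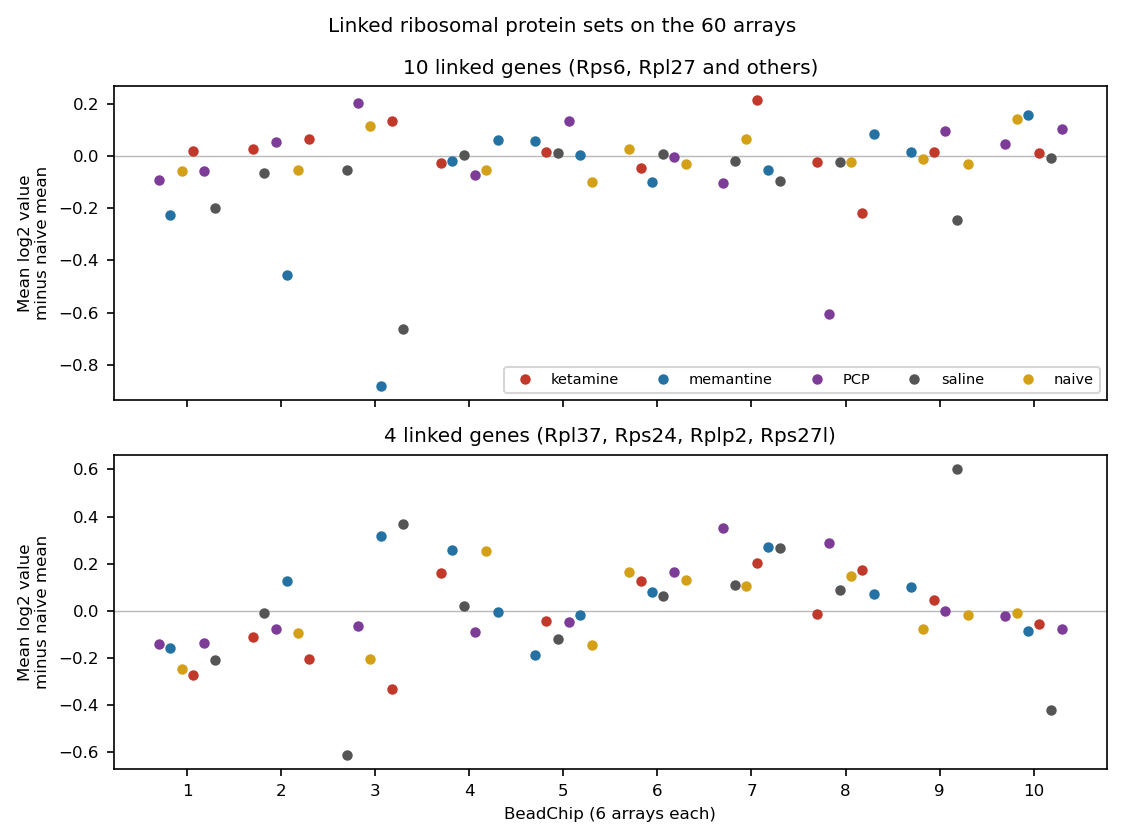
Mean log2 value minus the naive mean (vertical axes) of 10 linked members (top) and the 4 linked members Rpl37, Rps24, Rplp2 and Rps27l (bottom) on the 6 arrays of each of 10 BeadChips, with colour for treatment. In the top panel 4 arrays, at -0.88, -0.66, -0.61 and -0.46, stand apart, and in the bottom panel the 6 arrays of BeadChips 1, 5 and 10 all lie below 0 and those of BeadChips 6 and 7 above it.

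BeadChip took a larger part of the variation in the members than in other probes. The share of a probe's variance over 60 arrays that lay between BeadChips had a median of 29.01% in the members and 19.81% in all probes. That between groups was 30.86% and 30.95%. A split into 20 groups takes a larger share than one into 10 BeadChips even where neither has an effect. Each share can therefore be compared between members and all probes, but not with the other share. The share between BeadChips was highest in Rpl36a (65.2%), Rpl39 (56.0%), Rps25 (54.0%) and Rps21 (53.6%), and 3.64% of all probes had a share of 50% or more. Groups and BeadChips overlap in part, and the part of BeadChip in any difference was not tested beyond the block. Within a BeadChip only 8 pairs of a drug array with a time-matched saline array existed, 4 with ketamine and 4 with PCP, and none with memantine. The median difference of the members within them was -0.069, 0.014, 0.046 and 0.089 with ketamine at 1, 2, 4 and 8 h and 0.036, -0.073, 0.21 and 0.065 with PCP.

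Second probes gave different readings for many members. There were 29 dimmer probes for 20 of the genes, and their correlation with the brightest over 60 arrays had a median of 0.157, with a range from -0.22 to 0.82. Only the second probes of Rps9 (0.82) and Rpl38 (0.51) reached 0.5. Of the 88 probes of members, 87 were tested, and 1, a dimmer probe of Rpl27a, was called in 1 comparison, memantine at 4 h, in which 0.721% of all probes were called. Mouse ribosomal protein genes have many processed pseudogenes, and probes cannot tell a gene from a near-identical copy, so single members should be read as probe values.

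Genes that work beside the ribosome gave the background for these values. Of 76 mitochondrial ribosomal proteins, which form a separate ribosome, 0 passed in any drug factor, and 57, 55 and 63 were above 0 with ketamine, memantine and PCP. The median was 0.061, 0.040 and 0.054. Of 29 ribosome biogenesis genes 0 passed, and 23 were above 0 with memantine at 4 h (median 0.35), beside 51.1% of all probes, where the members were mostly below it. The score of these genes was 0.014, 0.15 and 0.080 on the memantine 4 h arrays. It was -0.12, -0.11 and -0.29 on the saline 4 h arrays and 0.042, 0.016 and -0.0059 on the naive 4 h arrays, so low saline arrays enter the difference. Of 19 translation factors and other mRNAs with a TOP tract 0 passed in a drug factor, with 10, 11 and 13 above 0, and of 18 controllers of the mTOR pathway 0 passed, with 8, 11 and 8 above 0. The lists were fixed with earlier results of these data known. The member score went with the mitochondrial ribosomal protein score over the 60 arrays (r = 0.73, rho = 0.82), a description over arrays that share groups and BeadChips.

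Cell type markers, also read over the tissue, give the makeup of the sample beside the values, and fewer cells of a type cannot be told apart from less RNA per cell. Markers of striatal projection neurons were present, with Rgs9, Pde1b and Ppp1r1b above the 99th percentile of brightness. The others ran from the 98.8th percentile (Pdyn) down to the 88.2nd (Pde10a), 82.3rd (Gnal) and 19.2nd (Adcy5). On ketamine 2 h replicate 2, which enters the ketamine factor, the score of this list was -0.82. That of cortical glutamatergic neurons was 0.93 there, and the member score was 0.0096. Of 9 markers of choroid plexus and ependyma 8 were above 0 with ketamine, beside 51.7% of all probes, with a median factor of 0.41. By limma 0 passed, beside 0.0181%, and 6 had an unadjusted p under 0.05, beside 9.46%. The score of this list was 1.28, 0.89 and 0.98 on the ketamine 2 h arrays and 0.35, 0.97 and -0.23 at 8 h. At 1 and 4 h all ketamine arrays were below 0. The score was also 0.97, -0.36 and 1.25 on the PCP 1 h arrays and 0.66, 0.59 and 0.12 on the naive 4 h arrays. With memantine at 4 h 1 astrocyte marker (Gjb6) rose and 2 of 9 endothelial and mural markers (Tek and Pdgfrb) fell, by limma's adjusted p of 0.0240, 0.0363 and 0.0271, in the drug comparison with the lowest median of the members. Pdgfrb also rose in saline mice at 4 h against 1 h (1.17, adjusted p = 0.0377), and the same saline 4 h arrays enter both values. Over the whole lists, 6 of 9 astrocyte markers and 4 of 9 endothelial and mural markers were above 0 with memantine at 4 h, with medians of 0.0047 and -0.23. The endothelial and mural score was -0.010, -0.044 and -0.040 on the memantine 4 h arrays, within its range of -0.29, 0.32 and 0.039 on the saline 4 h arrays. The astrocyte score was 0.14, 0.21 and 0.27 on the memantine 4 h arrays, against 0.33, -0.0018 and -0.041 on the saline 4 h arrays. Of 7 markers of cortical glutamatergic neurons 0 were above 0 with memantine at 4 h, with a median of -0.66 and 0 called. The score of this list was 0.32, -0.091 and -0.97 on the memantine 4 h arrays. It was -0.35, 0.76 and 1.03 on the saline 4 h arrays and 0.12, -0.13 and -0.51 on the naive 4 h arrays, so high saline arrays enter the difference. Over the 60 arrays the score of the 10 linked members had r = -0.62 and rho = -0.51 with the astrocyte score, as a description. The part of cell makeup in the member values was not tested.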

How the data were processed

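Striatal RNA pools were hybridised to Illumina MouseWG-6 v2 arrays, 1 colour, 3 arrays per group. The authors exported probe intensities without normalization from BeadStudio, and these deposited intensity values were the starting point. The authors also deposited log2 values, made by background subtraction and quantile normalization with the beadarray package, which served as an alternative only. Here intensities were corrected by normexp (offset 50), quantile-normalized and put on the log2 scale in limma 3.58.1 (R 4.3.3). Of 45281 probes, 44236 were tested because they exceeded the 25th percentile of the array on 3 or more arrays, with 1 mean per group, 40 residual degrees of freedom and Benjamini-Hochberg adjustment over all tested probes (threshold 0.05). Symbols came from the platform annotation: 34885 probes had 1 symbol, 18 several and 10378 none. Pairs at r of 0.7 or more were linked with igraph 2.1.4. The fit was tested on simulated data.

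Members and lists were chosen with earlier results of these data known. Named members were the 2 highest and 2 lowest by moderated t in each averaged comparison, the highest and lowest at each time, the reference gene, stalk and paralog lists, and the 4 largest and 4 smallest residual SDs. Others with an unadjusted p under 0.05 were named after their values were seen. The number of arrays limits the precision. Probe sequences and proteins were not used here.

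Replicate numbers did not pair the arrays across groups, so no block was used. Alternatives changed the background correction, normalization, filter, probe per gene, variance model, control, arrays, BeadChip and replicate block.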

Additional observations from a re-analysis of the deposited data

Results flagged for a closer look

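A dimmer probe of Rpl27a, outside the brightest probes on which the comparisons rest, was the 1 member probe called in any comparison. With memantine at 4 h its level was 13.12, 11.85 and 12.40, against 13.43, 13.57 and 13.65 on saline arrays of 4 h, and the groups did not overlap. The difference was -1.09 (limma, adjusted p = 0.0096), while the brightest Rpl27a probe gave -0.0074 and the other dimmer probes -0.056 and 0.58. The called probe was also low on saline 8 h replicate 3, at 12.39, and on PCP 2 h replicate 3, at 12.68. The 10 linked members were low on both arrays.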

How the results depend on the processing

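No member was called under the settings of the report, and no alternative that was run called one in a drug factor. Of 133 values recomputed, all 133 kept their direction or size with no filter and with the replicate block, in which the memantine 4 h median was -0.089 and 0 members were called in each comparison. Replicate numbers pair no arrays: 2 of 36 same-number pairs correlated above 0.1 (range -0.24 to 0.16).

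With memantine at 4 h, 1 member was called with the authors' log2 values, without background correction, with the filter on all arrays and with trended and robust variance (Rpl23 in each), and 1 with BeadChip as a block (Rpl30). Median scaling called 30 there and 4, all lower, for saline minus naive at 4 h, and gave medians for all probes of 0.26 and -0.21. Under median scaling the members' medians were 0.27 for the ketamine factor, 0.36 for the memantine factor and 0.25 for the PCP factor, and those of all probes 0.088, 0.13 and 0.075. At 1, 2, 4 and 8 h they were 0.33, 0.30, 0.54 and -0.13 with ketamine, 0.43, 0.19, 0.76 and -0.0092 with memantine, and 0.22, 0.37, 0.54 and -0.18 with PCP. For saline minus naive they were -0.33 overall and -0.40, -0.13, -0.76 and 0.055 by time. They were -0.084 for ketamine minus memantine, -0.10 for PCP minus memantine, 0.11 for naive 4 h minus 1 h, and 0.20, -0.20 and 0.46 for saline 2, 4 and 8 h minus 1 h. Directions turned for Rplp1 in the ketamine (0.25) and PCP (0.22) factors and memantine 8 h (0.075), Rpl23 in the memantine factor (0.22) and memantine 4 h (0.14), and Rpl22 in the memantine (0.17) and PCP (0.054) factors and saline minus naive (-0.13). They also turned for Rpl3 in ketamine 1 h (0.17) and PCP 1 h (0.077), Rps26 in ketamine 2 h (0.079), Rpl34 in PCP 2 h (0.11), Rpl30 in PCP 4 h (0.036) and Rps6 in saline 8 h minus 1 h (0.013). Medians of all probes under median scaling ran from -0.21 to 0.26 over the comparisons, and members minus all probes from -0.56 for saline minus naive at 4 h to 0.50 for memantine 4 h. The cause was not tested.

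With BeadChip as a block the naive 4 h minus 1 h median was 0.064 and Rpl14 there -0.10. Against naive arrays the medians were -0.0069 for ketamine 1 h and memantine 1 h, 0.016 for ketamine 4 h and 0.034 for PCP 8 h, and Rps15a with ketamine at 4 h was -0.061. Without saline 4 h replicates 1 and 3 the 4 h medians were -0.031 with ketamine, -0.21 with memantine and -0.0061 with PCP, 0.046 for saline minus naive at 4 h and 0.11 for saline 4 h minus 1 h, and Rps15a with ketamine was -0.018. Without memantine 4 h replicates 2 and 3, a choice made after seeing the data, the memantine 4 h median was 0.054.

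Leaving out 1 array at a time, medians ranged from -0.0020 to 0.12 for ketamine 1 h, 0.042 to 0.15 for ketamine 4 h, 0.029 to 0.13 for memantine 1 h, -0.15 to -0.023 for memantine 4 h, -0.062 to 0.048 for PCP 2 h (highest without PCP replicate 3) and 0.071 to 0.16 for PCP 8 h. They ranged from 0.0029 to 0.14 for saline 2 h minus 1 h, -0.14 to -0.0082 for saline minus naive at 1 h, both with saline 1 h replicates 2 and 3 at the ends, and -0.098 to -0.019 for saline minus naive at 8 h. Members called ranged from 0 to 3 for memantine 4 h, with 3 without its replicate 1, beside 1.47% of all probes. The range was 0 to 2 for saline minus naive at 4 h. It was 0 to 1 for ketamine 4 h, PCP 4 h, saline 4 h minus 1 h and time in saline. Each of these was highest without saline 4 h replicate 2. There all probes passed at 2.54% for saline minus naive at 4 h, 1.39% for ketamine 4 h, 2.31% for PCP 4 h and 1.34% for saline 4 h minus 1 h.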
